A study of Homo sapiens with 66 samples.

Results

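The BTG/TOB antiproliferative family was followed in RNA of 11 cell lines of acute myeloid leukemia (AML), before and after a 24-hour treatment with etoposide. Its members were taken by gene symbol and are BTG1, BTG2, BTG3, TOB1 and TOB2, which are 5 of the 57992 genes counted. The family was chosen by a measured value, the etoposide change of BTG2, which rose in every cell line that responded to the drug, so the changes of BTG2 in those lines are given as a description with no test. The changes of the other 4 members, the basal levels of all 5 and the response of OCIAML2 did not enter that choice. The relatives BTG4 and BTG3P1 held 19 and 0 reads in all libraries together and were not followed further.

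The cell lines were F36P, HL60, KASUMI1, MOLM13, MONOMAC6, MV411, NB4, NOMO1, OCIAML2, OCIAML3 and THP1, all established lines grown from leukemia patients. Untreated cells received medium, and treated cells received etoposide at the concentration that had reduced the viability of that cell line to its midpoint (its IC50), so the dose differed between lines. Each group held 3 libraries described as biological replicates, which gives 33 untreated and 33 etoposide libraries. Etoposide is a topoisomerase II poison that keeps the enzyme on cleaved DNA and leaves strand breaks. The study set its etoposide libraries of OCIAML2 aside after quality control of the raw reads, so this line is reported apart and summaries of the response cover the other 10 lines. Reads on genes numbered 17997404 to 24101670 per library. The pan-leukocyte gene PTPRC, the myeloid factor SPI1 and the myeloid surface marker CD33 were above 1 CPM (counts scaled to the size of the library) in all 11 untreated lines. F36P departed from the rest, with MPO at 0.977 CPM and CEBPA at 0.552 CPM, its erythroid list summing to 7430 CPM against 225 to 1040 CPM in the other lines. Summed lymphoid markers ran from 0.516 CPM in OCIAML3 to 166 CPM in NOMO1, where CD3D alone gave 156 CPM. The part of these lineage differences in the results below was not tested. In bulk RNA, a change in every cell and a change in the share of cells that express a gene cannot be told apart.

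BTG and TOB proteins share an N-terminal BTG domain through which they bind CNOT7 and CNOT8, the CAF1 nucleases of the CCR4-NOT deadenylase. This contact brings the deadenylase to messenger RNAs, shortens their poly(A) tails and speeds their decay. TOB1 and TOB2 have a longer C-terminal part that also holds cytoplasmic poly(A)-binding protein. BTG1 and BTG2 additionally bind the arginine methyltransferase PRMT1 and the homeodomain factor HOXB9. The members restrain entry into the cell cycle when raised in cultured cells, BTG2 and BTG3 are known to be induced by DNA damage, and BTG1 and BTG2 are abundant in resting blood cells.

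BTG1 (ENSG00000133639.4) lies at chr12:92140278-92145846 on the minus strand of GRCh38, and BTG2 (ENSG00000159388.5) at chr1:203305491-203309602 on the plus strand. BTG3 (ENSG00000154640.14) lies at chr21:17593653-17612945, TOB1 (ENSG00000141232.4) at chr17:50862223-50867978 and TOB2 (ENSG00000183864.4) at chr22:41433494-41446801, all on the minus strand. The promoters of BTG1 and BTG2 are shown. BTG1 was higher at a false discovery rate (FDR) below 0.05 in 9 of the 10 lines. BTG2 rose in all 10, which is the property that chose the family. Each stretch is the 250 bases before the RefSeq start of the gene (GRCh38.p14), 5′ to 3′ on the strand of the gene, at chr1:203305269-203305518 for BTG2 and chr12:92145847-92146096 for BTG1.
BTG2: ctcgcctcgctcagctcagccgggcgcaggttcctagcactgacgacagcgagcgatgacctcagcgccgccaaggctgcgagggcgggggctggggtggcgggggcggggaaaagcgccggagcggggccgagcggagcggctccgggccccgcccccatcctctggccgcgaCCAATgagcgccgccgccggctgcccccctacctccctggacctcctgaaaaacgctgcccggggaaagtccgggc
BTG1: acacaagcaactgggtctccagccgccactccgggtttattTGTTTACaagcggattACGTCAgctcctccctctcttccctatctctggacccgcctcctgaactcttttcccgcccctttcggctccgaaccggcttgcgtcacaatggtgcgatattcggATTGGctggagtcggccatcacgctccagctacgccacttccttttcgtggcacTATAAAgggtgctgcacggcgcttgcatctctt
Capitals mark matches, on either strand, to the motifs searched. These were the CCAAT box, the TATA box as TATAAA, the forkhead core as TGTTTAC, the cAMP response core as TGACGT, and the NF-kB motif in its usual degenerate pattern. BTG2 held a CCAAT box whose first base was 76 bases before the start. BTG1 held TGTTTAC from base -209, the reverse complement of TGACGT from base -193, that of CCAAT from base -87 and TATAAA from base -33, and none of these matches overlapped another. Among 35116 promoters of the same 300-base window in the table, which runs from 250 bases before to 50 bases after the start, 34.6% held CCAAT, 11.5% TATAAA, 3.42% TGTTTAC and 7.98% TGACGT. The NF-kB motif was in 5.91% of them and in the window of no member, which says only that these letters are not in these 300 bases. GC content was 73.3% for BTG2 and 56.0% for BTG1, against a median of 58.7%. A match is a description of the sequence and was not tied to binding here.

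Levels before treatment were compared between members only per exon length, as RPKM, which is CPM divided by kilobases of exon, with the mean ± SD over 3 libraries. Averaged over the 11 untreated lines, TOB2 was at 13 RPKM, BTG1 at 11, TOB1 at 8.13, BTG2 at 6.78 and BTG3 at 5.75. The place of BTG3 depends on the length used, since with the longest transcript in place of the union of exons BTG3 was at 8.92, above BTG2 at 6.85 and next to TOB1 at 9.15. All 5 members differed between the untreated lines in an edgeR quasi-likelihood F test with Benjamini-Hochberg adjustment, the largest adjusted p being 1.86e-17, but 99.4% of the 18130 genes tested did so. Between lines next to each other in the order of levels, 3 or 4 of the 10 neighbouring pairs of each member differed at an FDR below 0.05. These were 33 pairs of lines in all, in which 66.7% of all genes differed (50.5% to 76.6% in a pair).

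BTG2, an immediate early gene of growth factor and stress signalling, had the widest basal range among members with reads in every line, with an untreated level of 14.9 ± 4.52 RPKM in MOLM13 and 0.134 ± 0.0238 RPKM in KASUMI1. The levels then ran 11.6 ± 1.77 in NOMO1, 10.8 ± 0.895 in OCIAML2, 8.49 ± 0.480 in OCIAML3, 8.45 ± 0.786 in MONOMAC6 and 8.02 ± 1.84 in F36P, and no neighbours among these 6 highest lines differed. THP1 at 5.29 ± 0.368 RPKM was below F36P, with an adjusted p of 0.00600 by edgeR's quasi-likelihood test, and did not differ from MV411 at 4.40 ± 0.394. HL60 (1.84 ± 0.209), NB4 (0.689 ± 0.472) and KASUMI1 each stood below the line before it, with adjusted p of 1.01e-05, 6.98e-05 and 1.15e-04 by the same test. KASUMI1 held 21 reads on BTG2 in its 3 untreated libraries together.

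BTG1, a gene often mutated in lymphoid cancers, was highest in untreated HL60 at 17.9 ± 1.49 RPKM and lowest in F36P at 3.04 ± 0.459 RPKM, a ratio of 5.90. HL60 differed from OCIAML2 (14.6 ± 0.591), the next line, with an adjusted p of 0.0197 by edgeR. MOLM13 (13.6 ± 0.863), MONOMAC6 (13.3 ± 0.665), NOMO1 (13.2 ± 0.705) and NB4 (11.5 ± 2.99) followed with no difference between neighbours. OCIAML3 (9.15 ± 0.739), THP1 (9.13 ± 0.380) and MV411 (8.62 ± 0.709) formed a second run without a difference between neighbours, below NB4. KASUMI1 at 6.72 ± 0.328 RPKM and F36P each stood below their neighbour, F36P with an adjusted p of 4.29e-10 by edgeR.

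BTG3, which can bind the transcription factor E2F1, was absent from the counts in NB4. Its 6 libraries held 0 reads on the gene, and 0 reads in the 3 untreated libraries allow a level of up to 0.0515 CPM, for counting error only. Among the other lines BTG3 was highest in untreated THP1 (10.3 ± 1.48 RPKM), KASUMI1 (8.94 ± 0.0221) and OCIAML3 (7.98 ± 0.517), whose neighbours did not differ. OCIAML2 (6.42 ± 0.189), MONOMAC6 (6.30 ± 0.147), MOLM13 (6.30 ± 0.279), NOMO1 (5.36 ± 0.417) and MV411 (5.11 ± 0.375) were below OCIAML3 and did not differ from one neighbour to the next. F36P (3.55 ± 1.06) and HL60 (3.05 ± 0.437) were lower again.

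TOB1, which binds BMP-responsive SMAD proteins as well as the deadenylase, had the narrowest basal range, from 15.6 ± 1.25 RPKM in untreated KASUMI1 to 4.90 ± 0.403 RPKM in NB4, a ratio of 3.18. KASUMI1 stood above MONOMAC6 (11.3 ± 1.10) and MONOMAC6 above HL60 (9.34 ± 0.227), while HL60 did not differ from THP1 (8.84 ± 0.729). THP1 stood above MOLM13, and from MOLM13 (7.37 ± 0.483) down through MV411 (7.15 ± 0.710), F36P (6.79 ± 0.310), OCIAML2 (6.70 ± 0.697), NOMO1 (6.00 ± 0.361) and OCIAML3 (5.40 ± 0.175) to NB4, no neighbours differed. TOB2, the close relative of TOB1, was highest in untreated OCIAML3 (26.5 ± 2.11 RPKM), then KASUMI1 (23.1 ± 2.03) and F36P (16.5 ± 2.13), both of these steps passing the test. HL60 (14.9 ± 0.183) and OCIAML2 (14.5 ± 1.12) did not differ from F36P or each other. Below OCIAML2, TOB2 was at 9.83 ± 0.922 in MOLM13, 9.78 ± 0.382 in MONOMAC6 and 9.49 ± 0.0575 in THP1, with no difference between these neighbours, and below THP1 came a run of 6.47 ± 0.245 in MV411, 6.24 ± 0.0656 in NOMO1 and 5.67 ± 0.171 RPKM in NB4.

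The order of lines thus differed between members. KASUMI1 was highest for TOB1 and lowest for BTG2, and F36P was among the 3 highest for TOB2 and lowest for BTG1. Over the 11 lines the basal log2(1 + CPM) of BTG1 and BTG2 correlated with an r of 0.12, BTG2 and BTG3 with 0.41, BTG2 and TOB1 with -0.40, BTG3 and TOB1 with 0.48 and TOB1 and TOB2 with 0.34, as a description over lines that share library type and depth. Each of these moved with a single line. Without KASUMI1 r was 0.81 for BTG2 and BTG3, 0.16 for BTG2 and TOB1 and 0.05 for TOB1 and TOB2. It was 0.66 for TOB1 and TOB2 without OCIAML3, 0.43 for BTG1 and BTG2 without F36P, and -0.11 for BTG2 and BTG3 and 0.23 for BTG3 and TOB1 without NB4.

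**Figure D1:**
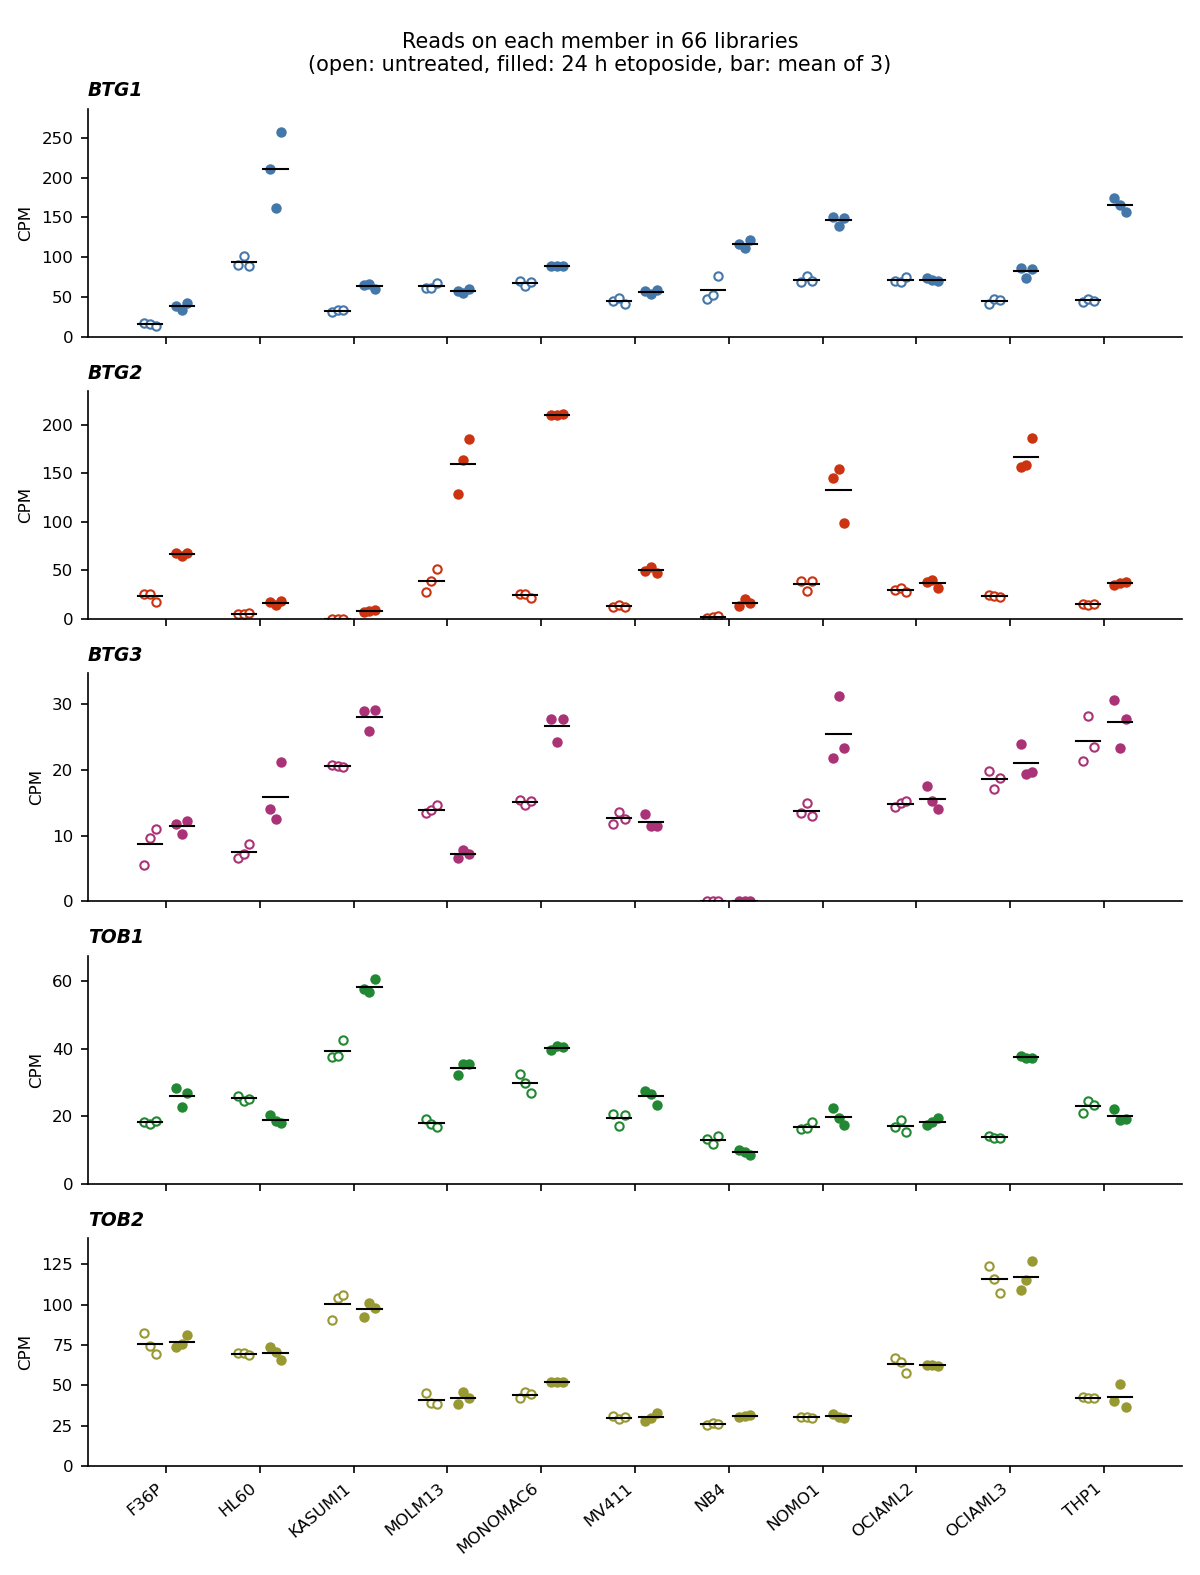
Normalized reads on each member in every library, in CPM on a linear axis per gene (y) for the 11 cell lines (x), with open points for the 3 untreated libraries, filled points for the 3 etoposide libraries and bars at their means. BTG2 after etoposide lies above the untreated libraries in all lines but OCIAML2, while the 2 groups of TOB2 share their range in most lines.

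BTG2 rose in each of the 10 lines after etoposide, which is the property it was chosen for. The fold change was 22.3 in KASUMI1, 8.67 in MONOMAC6, 8.43 in NB4, 7.07 in OCIAML3, 4.04 in MOLM13, 3.87 in MV411, 3.73 in NOMO1, 3.08 in HL60, 2.86 in F36P and 2.45 in THP1. Induced, here and below, means an FDR below 0.05 with a fold change above 2, and of all genes tested this held for 24.3% in F36P, 5.34% in HL60, 14.6% in KASUMI1, 8.59% in MOLM13, 8.53% in MONOMAC6, 12.5% in MV411, 13.2% in NB4, 8.34% in NOMO1, 7.18% in OCIAML3 and 6.38% in THP1. Of 10588 genes tested in all 10 lines, 17 were induced in every one (0.161%). By its median change, BTG2 ranked 30 among them, and nothing is read from this because the change chose the gene.

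The other calls had these backgrounds. Repressed, a fall by the same limits, held for 6.67% of all genes in F36P, 1.24% in HL60, 6.52% in KASUMI1, 3.37% in MOLM13, 4.47% in MONOMAC6, 2.63% in MV411, 4.82% in NB4, 4.43% in NOMO1, 1.36% in OCIAML3 and 3.46% in THP1. At an FDR below 0.05 alone, genes were higher in 35.0%, 17.5%, 31.5%, 28.1%, 31.8%, 33.5%, 31.0%, 28.8%, 22.4% and 16.1% of cases in the same order of lines. They were lower in 25%, 15%, 28.6%, 28.1%, 30.5%, 30.4%, 28.7%, 23.9%, 17.7% and 16.0%. The number of members called is read against these shares. No such share is given for groups that do not overlap, so overlap is stated below only as a description of the libraries.

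Per library, KASUMI1 held BTG2 at 0.356, 0.315 and 0.438 CPM untreated and 7.61, 8.58 and 8.88 CPM after etoposide, from 21 and 547 reads. In NB4 the untreated libraries held 0.762, 1.75 and 3.49 CPM and the etoposide libraries 13.3, 20.2 and 16.3 CPM. Without untreated replicate 3 of NB4, the library at 3.49 CPM, the log2 fold change was 3.72 in place of 3.08, above that of MONOMAC6 at 3.12. In both lines, which had the lowest basal BTG2, every etoposide library stood far above the untreated ones although the level reached was small. In KASUMI1, BTG2 reached the filter on low counts in the 3 etoposide libraries and in 0 untreated ones, so a rise there was fixed by the filter. HL60, the next lowest, moved from 4.90, 5.32 and 6.12 CPM to 17.1, 14.5 and 18.7 CPM.

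MONOMAC6 had 25.4, 25.7 and 21.6 CPM of BTG2 untreated and 210, 210 and 211 CPM after etoposide. OCIAML3 had 24.8, 23.5 and 22.5 CPM untreated and 156, 158 and 186 CPM after etoposide. These lines started at like levels and ended among the highest. MOLM13 held 27.8, 39.1 and 51.7 CPM untreated and 129, 164 and 185 CPM treated, with a wide spread in both groups. NOMO1 held 39.0, 29.2 and 38.7 CPM untreated and 145, 154 and 99.2 CPM treated. Neither pair of groups overlapped.

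In F36P the BTG2 values were 26.1, 25.9 and 17.9 CPM untreated and 67.5, 65.1 and 67.4 CPM treated. In MV411 they were 12.1, 14.4 and 12.4 CPM untreated and 49.3, 53.3 and 47.7 CPM treated. In THP1, with the smallest rise, they were 15.1, 14.0 and 15.9 CPM untreated and 35.3, 36.6 and 38.3 CPM treated. The order by fold and the order by level reached were not alike. Per exon length over the 60 libraries, BTG2 after etoposide stood at 75.3 RPKM in MONOMAC6, 63.8 in MOLM13, 60.7 in OCIAML3, 44.2 in NOMO1, 24.4 in F36P, 18.0 in MV411, 13.8 in THP1, 6.07 in NB4, 5.93 in HL60 and 3.25 in KASUMI1, the line with the largest fold.

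OCIAML2 was the line in which BTG2 could be tested. Its libraries held 30.3, 32.1 and 27.3 CPM untreated and 37.9, 40.4 and 31.5 CPM after etoposide, and the groups overlapped. The fold change was 1.23, with a nominal 95% interval of 1.08 to 1.39, and the adjusted p was 0.998 by edgeR's quasi-likelihood test. In that line 0.0221% of 13604 genes passed the FDR limit, which were CDKN1A, MDM2 and ZMAT3, each a gene known to be induced by DNA damage and each higher. The log2 fold changes of BTG1, BTG3, TOB1 and TOB2 in OCIAML2 were 0.01, 0.08, 0.12 and -0.01, all with an adjusted p of 0.998 by edgeR.

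The divergent transcript BTG2-DT (ENSG00000233791.5), a long noncoding RNA that starts upstream of BTG2 on the opposite strand at chr1:203298758-203305315, was looked at after its reads had been seen. It does not overlap the annotated BTG2 gene. It reached the filter on low counts in 4 lines and did so in all 3 etoposide libraries but in at most 1 untreated library of each, so a rise in these lines was fixed by the filter and is given in reads with no test. In MV411 it went from 25 to 132 reads, in NOMO1 from 19 to 122, in THP1 from 10 to 81 and in OCIAML3 from 9 to 52 reads over 3 libraries. In the other 6 lines the sums were between 0 and 3 reads untreated and between 3 and 35 reads after etoposide, and OCIAML2 had 14 and 19 reads. In the first 4 lines the log2 fold change of BTG2 was 1.95 in MV411, 2.82 in OCIAML3, 1.90 in NOMO1 and 1.29 in THP1.

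**Figure D2:**
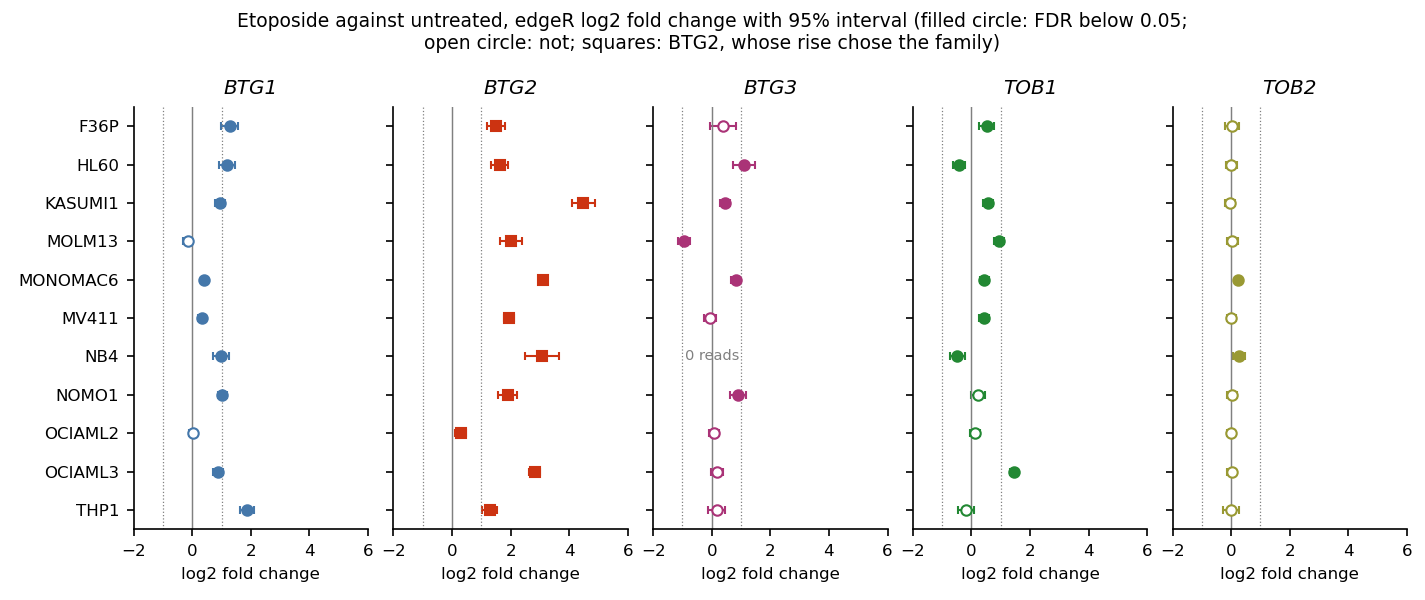
Log2 fold change of each member after etoposide against untreated (x) in each cell line (y), with 95% intervals from edgeR, dotted lines at a fold change of 2 in either direction, filled circles where the FDR was below 0.05 and squares for BTG2. BTG2 spans 1.29 to 4.48 in the 10 lines other than OCIAML2, BTG1 reaches 1.86 in THP1, BTG3 and TOB1 lie on both sides of 0 and TOB2 stays within 0.27 of it.

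BTG1 was induced in 4 of the 10 lines, F36P, HL60, NOMO1 and THP1, where 24.3%, 5.34%, 8.34% and 6.38% of all genes were, and was repressed in none by the edgeR quasi-likelihood test, the edgeR exact test or DESeq2, with 0 lines lower at an unadjusted p under 0.05. By the exact test BTG1 was induced in 4 lines too, and by DESeq2 in 3. It was higher at an FDR below 0.05 alone in 9 lines, where 16.1% to 35.0% of all genes were. Of the genes tested in all 10 lines, 5.08% were induced in at least 4. Its mean log2 fold change over the 10 lines was 0.88 ± 0.56 (SD), with an exact two-sided sign-flip permutation p of 0.00391 and an adjusted p of 0.0147 over 10588 genes. The smallest p that 10 lines allow is 0.00195, and 43.3% of these genes passed.

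THP1 held BTG1 at 44.1, 47.8 and 44.7 CPM untreated and 175, 165 and 157 CPM after etoposide, a fold change of 3.64 (nominal 95% interval 3.09 to 4.29) with an edgeR adjusted p of 3.07e-09. In F36P it went from 17.1, 15.9 and 13.7 CPM to 38.5, 33 and 42.3 CPM, a log2 fold change of 1.28 ± 0.146 (SE) with an edgeR adjusted p of 4.75e-05. HL60, the line with the highest basal level, went from 89.6, 102 and 88.4 CPM to 211, 162 and 258 CPM. NOMO1 went from 69.0, 75.8 and 70.4 CPM to 151, 139 and 149 CPM, a fold change of 2.04. In these 4 lines no etoposide library fell into the untreated range. NOMO1 lay near the fold limit and was at a log2 fold change of 0.963 without etoposide replicate 1, 0.996 without untreated replicate 1 and 0.993 by DESeq2, each just under the limit of 1.

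NB4 (46.8, 52.6 and 76.4 CPM untreated; 117, 111 and 121 CPM treated) and KASUMI1 (30.9, 33.2 and 33.7 CPM; 64.4, 65.7 and 59.5 CPM) lay just under the limit, with BTG1 fold changes of 1.99 and 1.94, and with library size alone they crossed it at log2 values of 1.20 and 1.13. KASUMI1 also crossed it, at 1.003, in the fit of all 60 libraries. In NB4 the fit with the replicate number as a block gave a log2 fold change of 1.02 in place of 0.99 and the call induced. The labels do not state that these libraries were paired. Without untreated replicate 3 of NB4, the library at 76.4 CPM, the log2 fold change was 1.21. OCIAML3 (fold change 1.84), MONOMAC6 (1.31) and MV411 (1.27) were higher at an FDR below 0.05 alone. In MOLM13 BTG1 was at 61.2, 61.1 and 68.0 CPM untreated and 57.4, 54.3 and 59.8 CPM treated. Its log2 fold change there was -0.15 ± 0.0763 (SE) with an edgeR adjusted p of 0.118, in the line in which BTG2 had the highest basal level.

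BTG3 changed in both directions. It was induced in 1 of the 9 lines with reads and repressed in 0 by edgeR's quasi-likelihood and exact tests and by DESeq2, with 1 line lower at an unadjusted p under 0.05. It was higher at an FDR below 0.05 alone in 4 and lower in 1, MOLM13, where 28.1% of all genes were lower by that rule. In HL60, where 5.34% of all genes were induced, its libraries held 6.63, 7.23 and 8.73 CPM untreated and 14.1, 12.5 and 21.2 CPM after etoposide, a fold change of 2.13 (1.64 to 2.76) with an edgeR adjusted p of 0.000887. Without etoposide replicate 3, the library at 21.2 CPM, the log2 fold change was 0.84 and the call was lost.

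In MONOMAC6 BTG3 went from 15.4, 14.7 and 15.3 CPM to 27.8, 24.3 and 27.7 CPM, a fold change of 1.76 with an edgeR adjusted p of 2.89e-06. In NOMO1 it went from 13.5, 14.9 and 13.0 CPM to 21.8, 31.2 and 23.3 CPM, a fold change of 1.85. In KASUMI1 the fold change was 1.36. MOLM13 moved the other way, from 13.4, 13.9 and 14.6 CPM to 6.58, 7.78 and 7.22 CPM, so that all treated libraries were below all untreated ones. Its log2 fold change was -0.95 ± 0.109 (SE), with an edgeR adjusted p of 5.41e-05, and it was -1.002, just past the fold limit, without etoposide replicate 2. F36P, MV411, OCIAML3 and THP1 had log2 fold changes of 0.39, -0.07, 0.18 and 0.17 and did not pass the FDR limit. Over the 9 lines, chosen because NB4 had no reads, the mean log2 fold change was 0.33 ± 0.61 (SD), with an exact sign-flip p of 0.141, an adjusted p of 0.229 and a smallest possible p of 0.00391, where 35.1% of genes passed.

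TOB1 was induced in 1 of the 10 lines, OCIAML3, where 7.18% of all genes were. Its libraries there held 14.1, 13.6 and 13.4 CPM untreated and 37.9, 37.2 and 37.3 CPM after etoposide, a fold change of 2.73 (2.47 to 3.02) with an edgeR adjusted p of 4.62e-06. At an FDR below 0.05 alone, TOB1 was higher in 6 lines and lower in 2, where 16.1% to 35.0% and 15% to 30.5% of all genes were. In MOLM13 it went from 19.1, 17.7 and 16.8 CPM to 32.1, 35.3 and 35.3 CPM, a fold change of 1.92 that reached a log2 value of 1.003 and the call induced without etoposide replicate 1 and in the fit of all 60 libraries.

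KASUMI1 (37.4, 37.7 and 42.5 CPM untreated; 57.5, 56.6 and 60.7 CPM treated) gave a TOB1 fold change of 1.49, F36P 1.43, MONOMAC6 1.35 and MV411 1.34. The fall was seen in HL60 and NB4. HL60 went from 25.9, 24.6 and 25.2 CPM to 20.3, 18.5 and 18.0 CPM, a log2 fold change of -0.41 ± 0.108 (SE) with an edgeR adjusted p of 0.00995. NB4 went from 13.2, 11.8 and 14.0 CPM to 10.1, 9.44 and 8.40 CPM, a log2 fold change of -0.48 ± 0.129 (SE) with an edgeR adjusted p of 0.00487. In neither line did the groups overlap. The antisense transcript TOB1-AS1, which overlaps the 5′ end of the TOB1 gene on the other strand, fell in NB4 with a log2 fold change of -1.04 ± 0.289 (SE) and an edgeR adjusted p of 0.00594. This transcript had few reads, 1206 over all 66 libraries together and at most 49 in a library. It was lower in NOMO1 (-0.998, edgeR adjusted p 0.0220) and in MONOMAC6 (-0.96, edgeR adjusted p 0.0253) as well, where TOB1 did not pass and was higher, respectively. NOMO1 and THP1, at 0.22 and -0.19 on the log2 scale, did not pass for TOB1. The mean over 10 lines was 0.35 ± 0.60 (SD), with an exact sign-flip p of 0.0977 and an adjusted p of 0.162.

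TOB2 was neither induced nor repressed in any of the 10 lines by the edgeR quasi-likelihood test, by DESeq2 or by the edgeR exact test, while 65.1% of the genes tested in all 10 lines were called in none. It passed the FDR limit alone in MONOMAC6 and NB4, which were also the 2 lines with an unadjusted p under 0.05. In MONOMAC6 it went from 42.4, 45.9 and 44.3 CPM to 52.2, 51.9 and 51.7 CPM, a fold change of 1.18 (1.09 to 1.27) with an edgeR adjusted p of 0.00355. In NB4 it went from 25.2, 26.6 and 25.8 CPM to 30.4, 31.2 and 31.7 CPM, a fold change of 1.20 (1.05 to 1.37) with an edgeR adjusted p of 0.0270. In the other 8 lines the log2 fold change was between -0.05 and 0.03 and the groups overlapped. The largest change in any line was 0.27 on the log2 scale, and 132 of the 10588 genes (1.25%) had a largest change no greater than that. The interval of the difference reached from 0.832 to 1.21 of the untreated level in THP1, where it was widest. The mean over 10 lines was 0.06 ± 0.10 (SD), with an exact sign-flip p of 0.0781 and an adjusted p of 0.136. With library size alone in place of TMM, which raised the median of all genes to 0.126, that mean was 0.167 with an adjusted p of 0.0103 by the exact sign-flip test.

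Whether the response itself differed between the 10 lines was tested with the interaction of cell line and treatment over 60 libraries. It passed for BTG1 (F = 22.2, adjusted p = 1.12e-13), BTG3 (F = 12.3, adjusted p = 4.63e-09) and TOB1 (F = 34.6, adjusted p = 2.72e-17) and did not for TOB2 (F = 1.34, adjusted p = 0.278), by edgeR's quasi-likelihood F test. With library size alone TOB2 passed too, with an adjusted p of 0.0147 by the same edgeR test. Of all 19974 genes in that fit, 74.5% passed. NB4, with 0 reads on BTG3, was in that fit, and without NB4 the adjusted p of BTG3 was 2.65e-09 by the same test.

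Line by line, the members combined in different ways. THP1 had the largest rise of BTG1 (log2 fold change 1.86) and the smallest of BTG2 (1.29). In MOLM13, where BTG2 was at 2.01, TOB1 (0.94) was higher and BTG3 (-0.95) lower. In OCIAML3, where BTG2 was at 2.82, TOB1 (1.45) and BTG1 (0.88) were higher. In NB4, where BTG2 was at 3.08, BTG1 (0.99) and TOB2 (0.27) were higher, TOB1 (-0.48) was lower and BTG3 had no reads. HL60 was the line in which BTG1 and BTG3 were both induced while TOB1 fell. KASUMI1 and MONOMAC6 had BTG1, BTG3 and TOB1 all higher at an FDR below 0.05, where 31.5% and 31.8% of all genes were. In MONOMAC6 TOB2 (0.23) was higher as well.

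Summed per exon length, the 5 members together were higher after etoposide in each of the 10 lines, a sum to which the choice of BTG2 contributes. The ratio of the sums was 2.61 in MONOMAC6, from 50.6 ± 1.88 to 132 ± 0.893 RPKM, and 1.40 in KASUMI1, from 56.4 ± 3.45 to 78.9 ± 0.812 RPKM. Without BTG2, the sum of the other 4 was still higher in each line, with a ratio of 1.12 in MOLM13, from 37.6 ± 0.918 to 42.0 ± 2.10 RPKM, to 1.69 in THP1, from 39.0 ± 2.58 to 66.1 ± 4.03 RPKM. The untreated and etoposide libraries did not overlap in either sum in any of these lines, which is a description with no background over all genes.

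The member with the highest level per exon length changed with treatment in some lines. The part of BTG2 in this, in rank and in share, follows from the rise that chose the family, and nothing is read from it. Untreated, this was BTG1 in 5 lines, TOB2 in 3, BTG2 in MOLM13 and BTG3 in THP1. In MOLM13 and THP1 the libraries of the leading and the second member overlapped. After etoposide it was BTG2 in 6 lines (F36P, MOLM13, MONOMAC6, MV411, NOMO1 and OCIAML3), BTG1 in 3 (HL60, NB4 and THP1) and TOB1 in KASUMI1, where TOB1 at 24.8 and TOB2 at 23.9 RPKM overlapped. BTG2 made up 60 ± 3.35% of the family sum in MOLM13 after etoposide, up from 28.3 ± 6.37%, and 56.9 ± 0.229% in MONOMAC6, up from 17.2 ± 1.16%. In KASUMI1 its share went from 0.246 ± 0.0349% to 4.11 ± 0.272%. BTG1 made up 58.7% of the sum in NB4 and 53.7% in HL60 after etoposide.

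**Figure D3:**
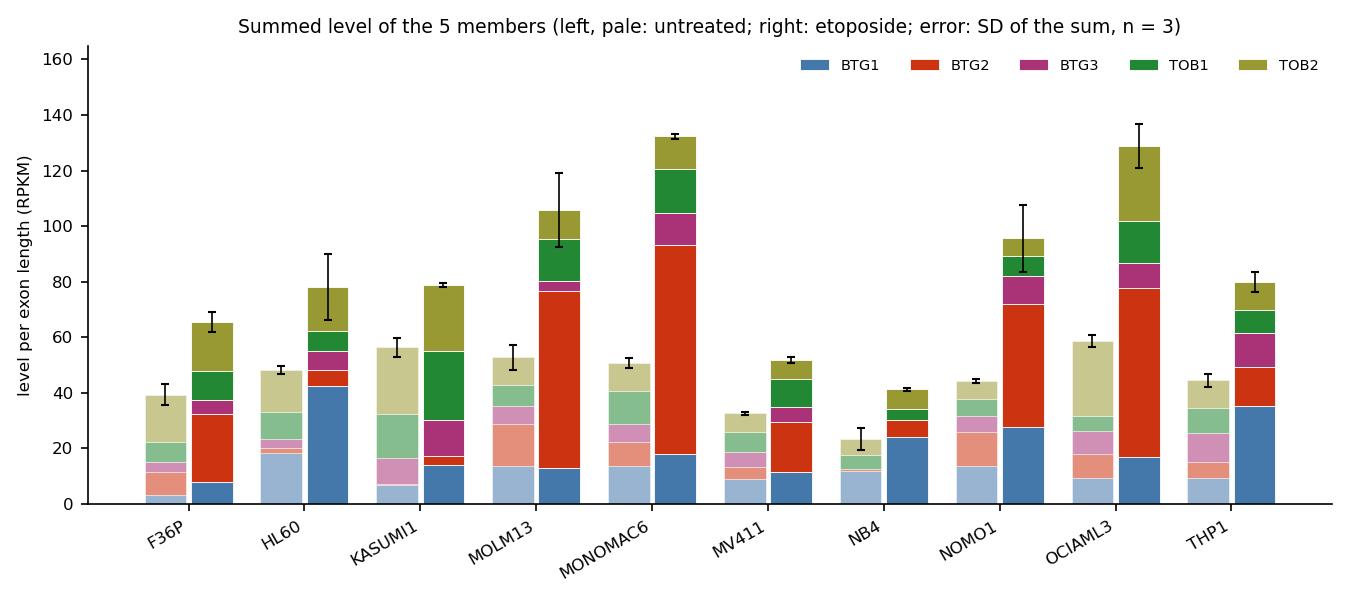
Level per exon length of the 5 members, stacked, in RPKM (y) for untreated (left, pale) and etoposide (right) libraries of 10 cell lines (x), with error bars for the SD of the sum over 3 libraries. BTG2, whose rise chose the family, is the largest segment after etoposide in 6 lines and BTG1 in HL60, NB4 and THP1.

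The enzymes and partners through which these proteins act were followed in the same libraries. A list of 17 genes of the CCR4-NOT complex, the other deadenylases and the cytoplasmic poly(A)-binding proteins held 0 induced or repressed among 170 pairs of gene and line by edgeR's quasi-likelihood and exact tests and by DESeq2. At an unadjusted p under 0.05, 72 pairs were lower and 9 higher. At an FDR below 0.05 alone, 60 of the 170 (35.3%) were lower and 8 (4.71%) higher, against 15% to 30.5% lower and 16.1% to 35.0% higher among all genes of a line. Of the 17 genes, 11 were lower in MV411, 10 in F36P and 8 in KASUMI1, but 2 in HL60, 2 in THP1 and 1 in NOMO1. In the last 3 of these lines the share lower was below that of all genes. The list median was below that of all genes in each of the 10 lines, from -0.43 in F36P to 0.03 in NOMO1 on the log2 scale, while medians of all genes were between -0.03 and 0.09. The gap was small in NOMO1 (0.027 against 0.036) and THP1 (-0.05 against -0.034). CNOT7, the nuclease bound by all 5 members, had a negative log2 fold change in all 10 lines, from -0.53 in F36P (216 to 150 CPM) to -0.01 in THP1, and was lower at that FDR in 6. Its paralog CNOT8 was higher in F36P (0.49) and KASUMI1 (0.59) and did not pass in the other 8 lines. CNOT1, the scaffold of the complex, was lower in 5 lines.

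The nuclease PARN was lower in F36P (-0.92), HL60 (-0.38), KASUMI1 (-0.31) and NB4 (-0.49). PAN2 was higher in KASUMI1 (0.77), NB4 (0.62) and F36P (0.31) and lower in MOLM13 (-0.25) and MV411 (-0.28). PABPC1, the main cytoplasmic poly(A)-binding protein and a partner of TOB1 and TOB2, was lower in 5 lines, among them F36P (-0.54), and higher in MOLM13 (0.39). The methyltransferase PRMT1 had a negative log2 fold change in all 10 lines. It was repressed in F36P, from 403 to 173 CPM, and in KASUMI1, from 372 to 164 CPM, where 6.67% and 6.52% of all genes were, and was lower at an FDR below 0.05 alone in 8 lines. HL60 (-0.08) and THP1 (-0.11) did not pass.

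**Figure D4:**
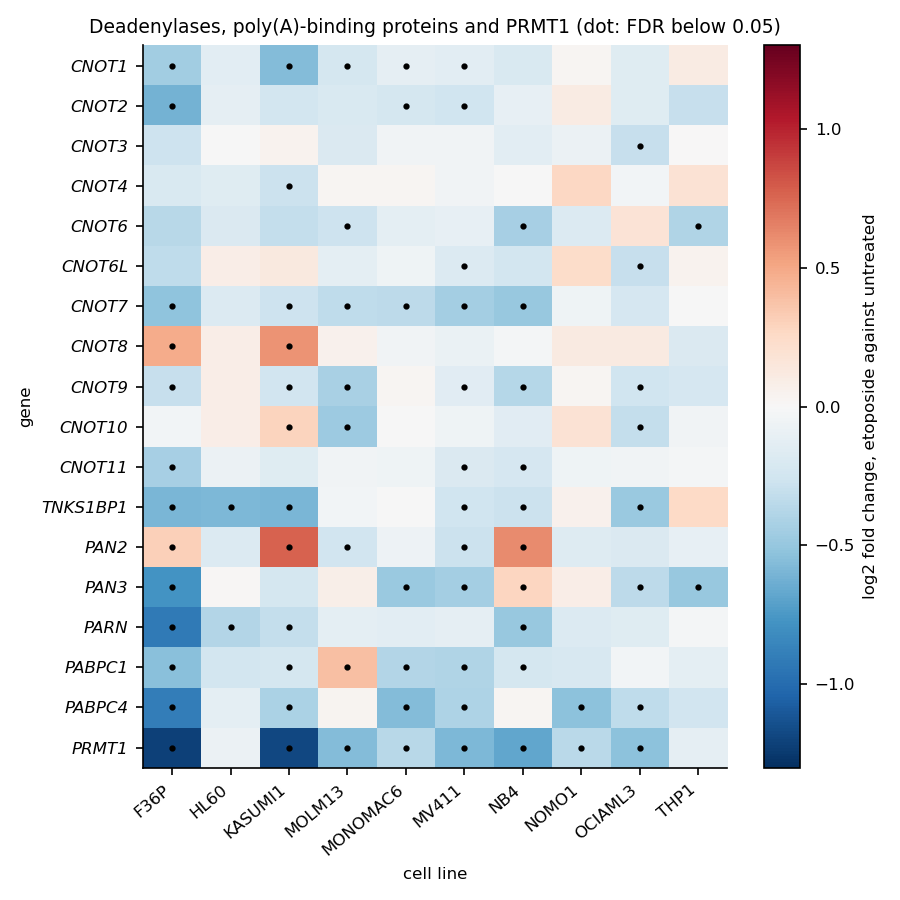
Log2 fold change after etoposide (color) of 17 deadenylation genes and PRMT1 (y) in 10 cell lines (x), with a dot where the FDR was below 0.05. PRMT1 and CNOT7 are below 0 in every line, and F36P and KASUMI1 hold the 2 repressed values of PRMT1.

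HOXB9 had enough reads in 4 lines and was induced in each, from 34.3 to 73.4 CPM in NB4, 0.812 to 6.19 CPM in F36P, 0.881 to 3.03 CPM in HL60 and 1.83 to 4.02 CPM in OCIAML3. Of all genes, 13.2%, 24.3%, 5.34% and 7.18% were induced in these lines. SMAD9, one of the SMAD proteins that TOB1 can bind, was induced in HL60 (1.05 to 2.42 CPM). It went from 4 to 239 reads over 3 libraries in F36P and from 9 to 302 reads in KASUMI1, where it reached the filter in the etoposide libraries alone. Over the 6 partner genes, 8 of 44 pairs of gene and line were induced (18.2%) and 2 repressed, which were those of PRMT1. Among the 41 pairs that reached the filter in all 3 untreated libraries, 5 were induced (12.2%). Both induced shares lie within the 5.34% to 24.3% of all genes induced in a line.

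Among 9 genes of the G1 phase, in which raised BTG and TOB proteins are known to hold cells, 9 of 85 pairs were induced (10.6%) and 2 repressed (2.35%). Both lie within the shares of all genes in a line, 5.34% to 24.3% induced and 1.24% to 6.67% repressed. Cyclin E2 (CCNE2) gave 6 of the induced pairs, with log2 fold changes of 2.33 in F36P and 2.33 in KASUMI1 at the top, and was lower in MOLM13 (-0.58) and OCIAML3 (-0.89) at an FDR below 0.05 alone. Cyclin D1 (CCND1), a reported target of BTG2, was lower in KASUMI1 (-0.87) and NB4 (-0.40), higher in F36P (0.56), HL60 (0.41) and NOMO1 (0.59) and had too few reads for a test in MONOMAC6 and MV411. Both repressed pairs were of the kinase CDK6, from 401 to 107 CPM in F36P and from 709 to 202 CPM in KASUMI1. The 3 FOXO factors, of which FOXO3 is known to act on BTG1, had 0 of 29 pairs induced and 1 repressed by all 3 tests, with 11 higher at an unadjusted p under 0.05 and 10 higher and 5 lower at an FDR below 0.05 alone. The last 2 counts were 34.5% and 17.2% of pairs, against 16.1% to 35.0% higher and 15% to 30.5% lower among all genes of a line. FOXO3 was higher in 6 lines, up to 0.75 in NOMO1, lower in MOLM13 (-0.29) and repressed in F36P (-1.02). In the other 3 lines in which BTG1 was induced it was higher, at 0.35 in HL60, 0.75 in NOMO1 and 0.54 in THP1. FOXO3 was also higher where BTG1 was not induced, at 0.497 in NB4, 0.399 in OCIAML3 and 0.315 in MONOMAC6. In KASUMI1, where the BTG1 fold change was 1.94, FOXO3 was at -0.12 and did not pass. A part of FOXO3 in the BTG1 change was not tested.

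A list of 11 genes known to be induced by DNA damage was set beside BTG2. Of 104 pairs of gene and line, 39 were induced (37.5%) and 1 was repressed, AEN in KASUMI1, and the list median was above that of all genes in each line. Of all genes in a line, 5.34% to 24.3% were induced and 1.24% to 6.67% repressed. Among the 102 pairs that reached the filter in all 3 untreated libraries, 37 were induced (36.3%). CDKN1A, the p21 inhibitor of cyclin-dependent kinases, was induced in all 10 lines, although in HL60 it reached the filter in the etoposide libraries alone, with log2 fold changes between 1.86 in MV411 and 5.46 in OCIAML3. MDM2, an E3 ubiquitin ligase, was induced in MOLM13 (1.84), MV411 (1.11) and OCIAML3 (2.59) and stood at -0.33 in NB4, -0.22 in F36P, -0.02 in KASUMI1, 0.03 in THP1 and 0.14 in HL60. It was higher at an FDR below 0.05 alone in MONOMAC6 and NOMO1. The number of the 11 genes induced was 11 in OCIAML3, 8 in MOLM13, 4 in MV411 and KASUMI1, 3 in F36P, MONOMAC6 and NOMO1 and 1 in HL60, NB4 and THP1.

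The lines were ordered differently by the BTG2 rise than by that of CDKN1A or MDM2. Over the 10 lines, which share the drug and the normalization, r was -0.01 with CDKN1A, -0.01 with MDM2, 0.29 with SESN1 and 0.26 with ZMAT3, and without KASUMI1 it was 0.28, 0.27, 0.29 and 0.51. KASUMI1 and NB4, with BTG2 fold changes of 22.3 and 8.43, had MDM2 at or below its untreated level. CDKN1A rose 5.92-fold in KASUMI1 and 13.8-fold in NB4. Of the damage list, 8 of 10 genes tested in KASUMI1 and 3 of 9 in NB4 were higher at an FDR below 0.05. In these lines 1 and 2 of them were lower, while of all genes 31.5% and 31.0% were higher and 28.6% and 28.7% lower. The BTG2 changes chose the family, so nothing is read from their order. With the other members the r of BTG2 was -0.25 for BTG1, 0.24 for TOB1 and 0.22 for TOB2, and without KASUMI1 it was -0.43, 0.22 and 0.78.

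**Figure D5:**
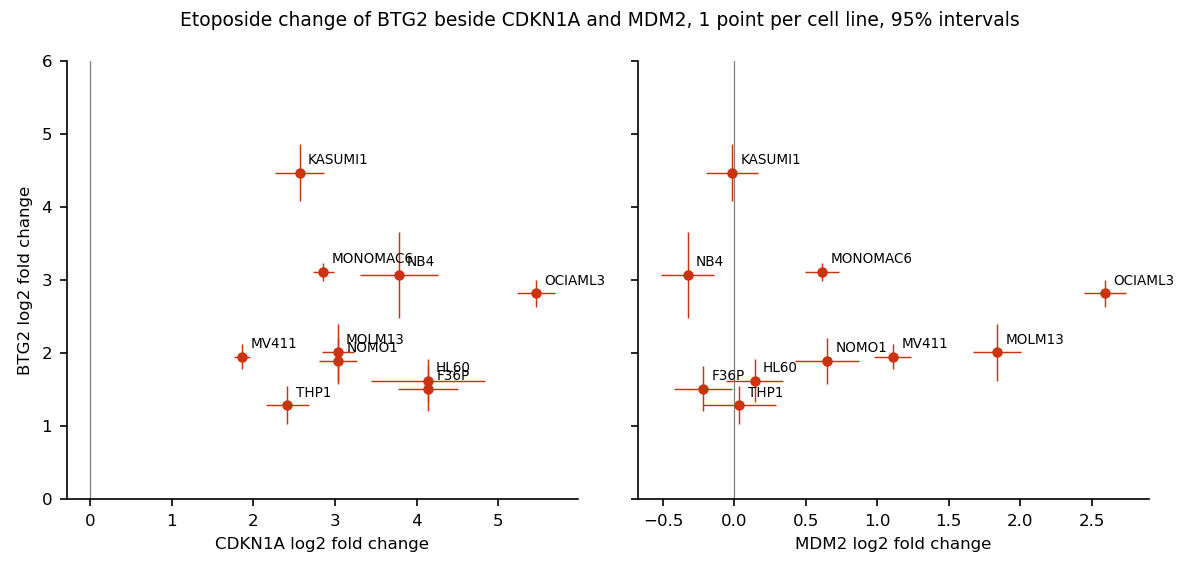
Log2 fold change of BTG2 (y) against that of CDKN1A (left) and MDM2 (right) on the x axis, with 1 point for each of 10 cell lines and nominal 95% intervals. KASUMI1 has the largest BTG2 change with MDM2 near 0, and OCIAML3 has the largest change of both CDKN1A and MDM2.

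Among 3693 genes tested in all 10 lines and induced or repressed in at least 1, those whose change was most like that of BTG2 were KIF20A, a mitotic kinesin (r = 0.92), LMNA, which encodes nuclear lamins A and C (0.91), DZIP3 (0.89), CABLES2 (0.88) and TBC1D10A (0.88). All 5 had their highest change in KASUMI1, and without that line r was 0.833, 0.785, 0.820, 0.750 and 0.875. KIF20A ran from -1.25 in F36P to 0.50 in KASUMI1, so its likeness is in the order of the lines and not in the direction. For basal levels, 13668 genes were ranked over the 11 lines. BTG1 was most like C16orf54 (r = 0.95), RRN3P1 (0.945) and MALT1 (0.93), and BTG2 most like SEL1L3 (0.925), TRMT12 (0.92) and SELPLG (0.91), which encodes the selectin ligand PSGL-1. BTG3 was most like GPD2 (0.96), CSRP1 (0.95) and ZNF280D (0.94), all lowest in NB4, and without NB4 these were 0.701, 0.625 and 0.539. TOB1 was most like GUSB (0.935), GPRASP1 (0.91) and ARL16 (0.90), and TOB2 most like DESI1 (0.93), CD27-AS1 (0.92) and ENSG00000204282 (0.88).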

How the data were processed

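RNA sequencing measured 66 libraries of 11 AML cell lines, 3 per group, and groups were taken from the sample labels. The authors mapped the reads with STAR 2.5.3a to GRCh38.p7 with gencode release 25, after quality control with FastQC 0.11.5, and used edgeR 3.20.1. The deposited values are raw counts of reads per gene, without normalization. Of 756 genes nested in an exon on the other strand by gencode release 44, 484 had reads. The reads were counted with release 25, so this does not settle whether antisense genes were counted by strand. After 45 copies on chromosome Y with 0 reads were left out, 57992 genes remained, of which 56948 were named by identifier from gencode release 44.

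From these counts, each line was fitted in R 4.3.3 with edgeR 4.0.16 (the quasi-likelihood test with TMM scaling and Benjamini-Hochberg adjustment over all genes tested, on genes that filterByExpr kept at a count of at least 10 and a total of at least 15). An FDR below 0.05 with a fold change above 2 made a call. CPM used TMM library sizes within a line, over 33 untreated libraries for basal levels, or over 60 libraries for levels per length after etoposide. RPKM divided CPM by the union of exons. The filter, the scaling, DESeq2 1.42.0, the edgeR exact test, 1 fit of 60 libraries, a replicate block and leaving out replicates were tried as alternatives, as were the fits without NB4, chosen after the data were seen. Intervals are nominal 95% intervals of 1.96 SE to either side, and the limit of a count of 0 is 3 reads. The SE came from the quasi-likelihood F and 1.96 from the normal distribution, so intervals can be narrower than the test allows. For BTG1 in MOLM13 the interval was 0.812 to 0.999 of the untreated level. Its unadjusted p was 0.0764 by edgeR's quasi-likelihood test. Depth was a median of 20241014 reads on genes per library, and the printed errors are those between 3 libraries. In NB4, libraries with the same replicate number departed from their groups together in all 3 pairs, with correlations of 0.152 or more against a limit of 0.1. The labels state no pairing, and such correlations ran from -0.327 in F36P to 0.334 in KASUMI1. Pairing in NB4 is therefore not settled by them. No label names a shared batch or culture day, so p-values measure the spread between these libraries. Tested on simulated data built on MV411 with 13765 genes, the quasi-likelihood test recovered 200 of 200 genes changed 3-fold, with 2 false calls. The changed genes were drawn from well-counted genes, and every gene was given the same low spread between libraries. The simulation therefore does not cover genes with few reads, a wide spread or a change near the fold limit.

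The members, gene lists and tests were chosen with earlier results of these data known. Named genes were the members, the list genes, and the 5 or 3 genes most correlated with a member. Tables and figures were made with pandas 2.3.3, numpy 2.4.6 and matplotlib 3.10.9 in Python 3.11.15. Promoter sequences are those of RefSeq on GRCh38.p14, in which all 5 members matched by symbol. Protein sequences were not used here, and an item of the gene lists is not reported here.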

Additional observations from a re-analysis of the deposited data

Results flagged for a closer look

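The change after etoposide differed between the 10 cell lines for 3 members by the test of the interaction itself (edgeR quasi-likelihood F test, adjusted over all genes in the fit). The adjusted p was 1.12e-13 for BTG1, whose log2 fold change ran from -0.15 in MOLM13 to 1.86 in THP1. It was 4.63e-09 for BTG3, which ran from -0.95 in MOLM13 to 1.09 in HL60, and 2.72e-17 for TOB1, which ran from -0.48 in NB4 to 1.45 in OCIAML3. In the same fit, 74.5% of all genes passed, so a difference between lines is common among genes in these data.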

How the results depend on the processing

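Over all alternatives to the change of a member in a line, 699 values kept their direction and their side of the limits, 12 gained the call, 5 lost it and 34 changed sign, the last all of changes that were not called. The values kept include those of BTG2 in the 10 lines. Its rise there chose the family, so these counts make the family look more stable than the other members were. With the FDR limit alone and no fold change minimum, the number of the 10 lines called induced was 9 for BTG1, 4 for BTG3, 6 for TOB1 and 2 for TOB2, and repressed 1 for BTG3 and 2 for TOB1. With 1 fit of the 60 libraries, TOB1 was induced in 2 lines. Leaving out 1 replicate at a time, the number induced ranged from 3 to 5 for BTG1, from 0 to 1 for BTG3 and from 1 to 2 for TOB1. The number repressed ranged from 0 to 1 for BTG3. Library size alone in place of TMM raised the median of all genes in the 10 lines by 0.11 on average on the log2 scale and by up to 0.25, in F36P. With it the mean change of TOB2 over 10 lines was 0.167 (exact sign-flip, adjusted p 0.0103), against a median of all genes of 0.126 in these fits, and its interaction reached an adjusted p of 0.0147 by edgeR. With the longest transcript in place of the union of exons, the mean basal level was 8.92 RPKM for BTG3 and 9.15 RPKM for TOB1.

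The sign changes were near 0. With library size alone, BTG3 in MV411 was at 0.062 and TOB2 in KASUMI1 at 0.128, where TOB2 was at 0.045 with a minimum of 5 CPM and at 0.001 in the fit of 60 libraries. TOB2 in F36P was at -0.090 without a filter and at -0.030 with RLE scaling and with DESeq2. With both of these it was at -0.009 in MV411 and OCIAML3 and at -0.004 in NOMO1. Leaving out 1 replicate, TOB2 ranged from -0.142 to 0.054 in F36P, -0.021 to 0.066 in HL60, -0.124 to 0.002 in KASUMI1, -0.021 to 0.114 in MOLM13, -0.064 to 0.038 in MV411, -0.044 to 0.042 in NOMO1, -0.072 to 0.032 in OCIAML2, -0.058 to 0.061 in OCIAML3 and -0.103 to 0.134 in THP1. In OCIAML2, BTG1 ranged from -0.010 to 0.045 and BTG3 from -0.018 to 0.147. The cause of these changes was not tested.

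With the replicate block, BTG1 was induced in 5 lines, BTG3 in 1, TOB1 in 1 and TOB2 in 0, and TOB2 in THP1 was at -0.007. The adjusted p of the interaction was 4.57e-09 for BTG1, 1.76e-07 for BTG3, 4.40e-11 for TOB1 and 0.445 for TOB2 under the block. The block changed 1 call, that of BTG1 in NB4, and by the labels the libraries of every line share only a number. Low reads limit BTG2 in untreated KASUMI1, and BTG2-DT and TOB1-AS1 in every line.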
